A study of Rattus norvegicus with 24 samples.

Results

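The livers of rats given 1-amino-2-methylanthraquinone were compared with the livers of rats given monuron, 4 arrays against 4, which are 8 of the 24 arrays of the series. The arrays were chosen by the compound named in their labels and by nothing measured. All rats were male F344, an inbred laboratory strain, with a labelled age of 5 weeks, and were treated by daily gavage for 28 days in corn oil. The tested group received 1-amino-2-methylanthraquinone, an aromatic amine of the anthraquinone dye family, at 150 mg/kg/day. The other group received 3-(4-chlorophenyl)-1,1-dimethylurea, monuron for short and a herbicide of the phenylurea class, at 250 mg/kg/day, so the doses differed as well as the compounds. Each array set the liver RNA of 1 treated rat (Cy3 dye) against pooled RNA of vehicle-treated rats (Cy5 dye), and the pool counts as 1 sample. The dyes were not swapped, so a dye effect shared by all arrays cancels between the compounds but not against the pool. A value below is the log2 ratio of treated over vehicle pool, in which 1 unit is a 2-fold change and 0 is the level of the pool.

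Both compounds are absorbed from the gut and pass through the liver, where hepatocytes oxidise, conjugate and excrete them. Several receptors govern the genes of that metabolism: the aryl hydrocarbon receptor, which drives the Cyp1 family, CAR and PXR, which drive Cyp2b, Cyp3a and many conjugating enzymes, and the factor Nrf2, which drives glutathione and quinone enzymes. Hepatocytes also make cholesterol, bile acids and most plasma proteins. The bile ducts are lined by another epithelium with its own keratins and junction proteins, and progenitor cells of the adult liver share many of its genes.

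In all, 205 of 11479 genes (1.79%) were called, which means a Benjamini-Hochberg adjusted p under 0.05 over all genes in limma and a difference of at least 2-fold. Of these, 129 genes (1.12%) were higher under 1-amino-2-methylanthraquinone than under monuron and 76 (0.662%) were lower. The adjusted p alone was under 0.05 for 2465 genes (21.5%) in the higher direction and 2221 (19.3%) in the lower direction, so most differences that passed the test stayed under 2-fold. The median difference over all genes was 0.0062. A gene symbol was known for 109 of the called genes, 66 higher and 43 lower. Against the vehicle pool, 245 genes (2.13%) were called under 1-amino-2-methylanthraquinone and 162 (1.41%) under monuron.

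The share of probes whose treated signal was well above background was 66.3% to 67.0% on the 1-amino-2-methylanthraquinone arrays and 59.7% to 63.7% on the monuron arrays. The array of monuron rat 1 had the lowest share, 59.7%, and 74 outlier spots, against 0 to 18 on the other arrays of the 2 compounds. Without this rat 131 genes were called higher and 74 lower. Over all genes, the correlation of log2 ratios between 2 rats of 1 compound was 0.70 to 0.90 under 1-amino-2-methylanthraquinone and 0.75 to 0.91 under monuron, given as a description across genes. The lowest values, 0.70 to 0.72, were those of 1-amino-2-methylanthraquinone rat 3 with the other rats of its group, and this rat often lay nearest to the monuron rats. Without it the genes called higher were 159 and the genes called lower 106, among them 196 of the 205. All 14 listed hepatocyte markers were measured and none was called, where 1.79% of all genes were called. By the adjusted p alone 4 of them were higher and 1 lower, beside 21.5% and 19.3% of all genes, with a median difference of 0.13. Each compound lay on a slide of its own and the 2 slides were scanned on different days, so slide, scan day and compound cannot be told apart.

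The vehicle pools on the 2 slides could differ too, because the labels do not say whether they were the same RNA. The vehicle signals differed by at least 2-fold between the slides for 56 genes (0.488%), and 28 of these were among the 205 called. Of the called genes, 110 differed at least 2-fold in the same direction in the treated channel, while for 42 an opposed difference in the vehicle channel made up at least 50% of the size of the difference in ratios. Aph1a, a subunit of the gamma-secretase protease, is such a gene. Its ratios were 2.14, 2.02, 1.92 and 1.99 under 1-amino-2-methylanthraquinone, against 0.16, −0.01, −0.15 and 0.04 under monuron. Its difference of 2.01 ± 0.10 (SE, adjusted p = 1.54e-11) was set by the vehicle channel, where the 1-amino-2-methylanthraquinone slide differed by −1.85, against 0.21 in the treated channel. Il1rn, the antagonist of the interleukin-1 receptor, differed by 1.44 ± 0.23 (SE, adjusted p = 3.88e-05) in the ratios, with a difference of −1.60 in the vehicle channel and −0.12 in the treated channel, and its second probe gave −0.14. The differences of the 2 channels are given below beside many of the ratios.

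**Figure D1:**
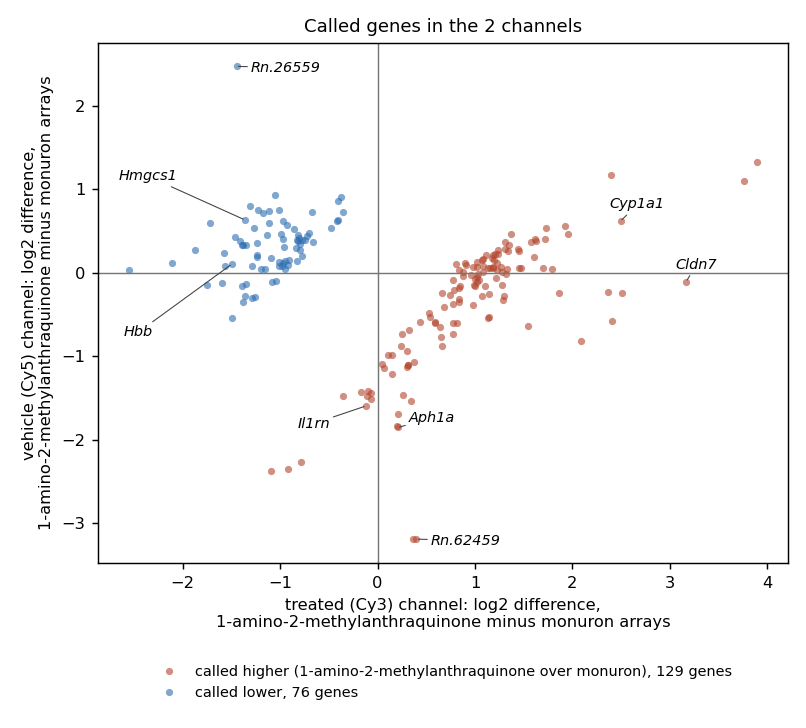
Difference between the 1-amino-2-methylanthraquinone and the monuron arrays in the treated (Cy3) channel on the x axis and in the vehicle (Cy5) channel on the y axis, both in log2 units, for the 129 genes called higher and the 76 called lower (1 point a gene). Cldn7 and Hbb lie near 0 in the vehicle channel, while Aph1a, Il1rn and the unnamed Rn.62459 differ mainly there.

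Genes of the bile duct and progenitor epithelium were the clearest group on the higher side. Of 24 listed genes 16 were measured, and 9 of the 16 were called higher under 1-amino-2-methylanthraquinone and none lower, where 1.12% of all genes were called higher. The median difference of the 16 was 1.14, beside 0.0062 over all genes. Their per-rat medians were 1.18, 1.17, 0.77 and 1.40 under 1-amino-2-methylanthraquinone, against 0.00, −0.04, 0.01 and 0.11 under monuron, so the median of the list stood close to the vehicle pool in each monuron rat. In bulk liver, more cells of a type and more RNA per cell cannot be told apart.

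The gene with the largest positive difference among those with a symbol was Cldn7, a claudin of the tight junctions of epithelial cells that hepatocytes largely lack. Its log2 ratios were 3.94, 3.72, 2.27 and 3.62 under 1-amino-2-methylanthraquinone, against 0.03, −0.06, −0.21 and 0.20 under monuron. The groups lay far apart, with rat 3 the lowest of the treated rats. The difference was 3.40 ± 0.29 (SE, adjusted p = 2.86e-08), or 10.6-fold, and a second Cldn7 probe gave 3.34. Nearly all of it lay in the treated channel (3.17, with −0.11 in the vehicle channel). The start of Cldn7 is shown because it is the promoter of the most changed epithelial gene. It lies at chr10:55188420-55188719 on the plus strand of the rat assembly GRCr8 (RefSeq), from 250 bases before to 50 after the gene's start, and capitals mark the cAMP element TGACGTCA and the core GCGTG of the aryl hydrocarbon receptor element, searched on both strands:
Cldn7: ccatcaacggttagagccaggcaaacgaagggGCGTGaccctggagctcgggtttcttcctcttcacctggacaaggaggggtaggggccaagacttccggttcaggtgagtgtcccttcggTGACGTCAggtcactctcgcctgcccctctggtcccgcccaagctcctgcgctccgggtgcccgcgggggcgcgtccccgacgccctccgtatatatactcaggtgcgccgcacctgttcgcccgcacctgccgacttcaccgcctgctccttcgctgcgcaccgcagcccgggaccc
Among the 13 of 16 measured list members with a promoter in the table, Cldn7 was the 1 that held TGACGTCA, which 1.88% of all 27457 promoters held, and 5 held GCGTG, which 30.7% of all promoters held. A match of letters is a description of the sequence and not evidence of binding.

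Other members of the list mark the duct lining and its secretions. Spp1 (osteopontin), a secreted phosphoprotein of duct cells, had log2 ratios of 1.75, 1.49, 1.97 and 1.68 under 1-amino-2-methylanthraquinone, against 0.35, −0.74, −0.32 and 0.11 under monuron. It was the 1 gene of the list in which rat 3 had the highest value of its group, and its difference was 1.88 ± 0.25 (SE, adjusted p = 5.49e-06). Sctr, the receptor of the hormone secretin through which ducts secrete bicarbonate, had ratios of 1.61, 2.01, 0.76 and 2.63 under 1-amino-2-methylanthraquinone, against 0.08, 0.06, 0.06 and 0.12 under monuron. The monuron values were almost equal to each other while the rats given 1-amino-2-methylanthraquinone spread widely, and the difference was 1.67 ± 0.23 (SE, adjusted p = 7.04e-06). Ggt1, the gamma-glutamyl transferase used as a marker of duct damage and of altered hepatocytes, differed by 1.43 ± 0.12 (SE, adjusted p = 3.08e-08). Of the Ggt1 difference, 0.65 lay in the treated channel and −0.77 in the vehicle channel, so its call was lost in the treated channel alone.

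The remaining called members were named after their values were seen, to complete the count of 9. Krt19, a keratin of the duct lining, had log2 ratios of 1.46, 1.68, 0.99 and 1.76 under 1-amino-2-methylanthraquinone, against −0.01, −0.07, 0.04 and 0.30 under monuron, a difference of 1.41 ± 0.15 (SE, adjusted p = 3.81e-07). A second Krt19 probe, printed here because it shares no run of more than 5 bases with the brightest one and gave nearly the same result, differed by 1.30 and has the 60 bases:
Krt19: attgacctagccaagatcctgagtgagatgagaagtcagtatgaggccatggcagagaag
Epcam, an adhesion molecule of ducts and progenitors, lay above the pool in all 8 rats, with ratios of 2.07, 2.21, 1.77 and 2.40 under 1-amino-2-methylanthraquinone, against 0.88, 0.64, 0.72 and 0.72 under monuron, and a difference of 1.37 ± 0.15 (SE, adjusted p = 5.59e-07). Muc1, a mucin of the duct surface, differed by 1.29, the membrane-binding annexin Anxa5 by 1.28 and the transcription factor Sox4 by 1.01. In each of these 5 genes the 4 values of one compound lay above all 4 of the other, an arrangement found in 18.9% of all genes in this direction.

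Members that were not called were in part higher by the adjusted p alone. In this direction 14 of the 16 passed it, beside 21.5% of all genes. The keratin pair Krt8 and Krt18, which hepatocytes express as well, differed by 0.81 (adjusted p = 0.000589) and 0.80 (adjusted p = 0.0028). Prom1, a membrane protein of progenitors, differed by 0.74, the water channel Aqp1 by 0.60 and the anion exchanger Slc4a2 by 0.39, of which −0.59 lay in the vehicle channel and −0.10 in the treated channel. Krt7, another duct keratin, gave 0.19 (adjusted p = 0.0899), and Afp, the fetal serum protein, gave −0.08 (adjusted p = 0.497). In the treated channel alone 6 members were called, and the median of the list there was 0.85.

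**Figure D2:**
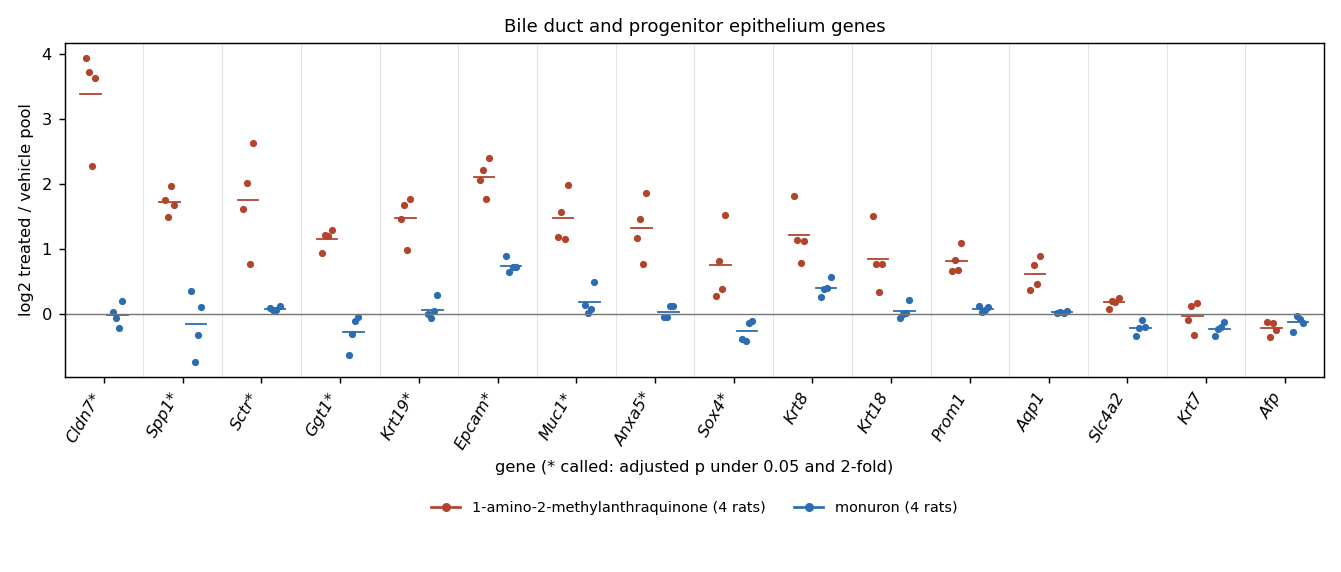
Log2 ratio of treated over vehicle pool (y axis) for the 16 measured genes of the bile duct and progenitor epithelium list (x axis, in order of the difference), with 1 point a rat, a bar at the mean of 4 rats, 1-amino-2-methylanthraquinone to the left of monuron. An asterisk marks the 9 called genes. Cldn7 reaches 3.94 under 1-amino-2-methylanthraquinone while its monuron values stay between −0.21 and 0.20.

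Outside the list, the largest positive difference among genes with a symbol was that of Prss8 (prostasin), a serine protease of epithelial surfaces. Its log2 ratios were 2.63, 2.93, 2.24 and 2.99 under 1-amino-2-methylanthraquinone, against −0.07, −0.02, 0.05 and 0.22 under monuron. The groups did not overlap, and the difference was 2.65 ± 0.41 (SE, adjusted p = 2.89e-05), with 1.19 for a second Prss8 probe. Bmp4, a secreted growth factor of the BMP family, had ratios of 1.02, 1.44, 0.48 and 1.68 under 1-amino-2-methylanthraquinone, against −0.85, −1.0, −0.48 and −0.43 under monuron, a difference of 1.84 ± 0.19 (SE, adjusted p = 3.84e-07). Its treated signal was well above background in 4 of 4 rats under 1-amino-2-methylanthraquinone and in 2 of 4 under monuron. The phosphate transporter Slc34a2 differed by 1.70, the adenosine receptor Adora1 by 1.65, the taurine transporter Slc6a6 by 1.72 and the membrane protein Tmem106a by 1.50. In the treated channel Slc6a6 and Slc34a2 differed by 1.14 each. Slc6a6 lay below the pool in every monuron rat (−1.76 to −0.80) and above it in every 1-amino-2-methylanthraquinone rat (0.18 to 1.07). Aldh1b1, a mitochondrial aldehyde dehydrogenase, had the same arrangement, at 0.10, 0.44, 0.68 and 0.49 under 1-amino-2-methylanthraquinone, against −1.22, −1.14, −1.13 and −1.41 under monuron. Its difference was 1.65 ± 0.17 (SE, adjusted p = 3.95e-07), with 0.38 and 1.60 for its other 2 probes. Piwil2, a Piwi protein of the germ line, differed by 1.55 ± 0.11 (SE, adjusted p = 2.18e-09), with 0.81 in the treated channel and −0.61 in the vehicle channel.

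Genes of cholesterol synthesis formed the largest group on the lower side. Of 26 listed genes 19 were measured, and 11 were called lower under 1-amino-2-methylanthraquinone than under monuron and none higher, where 0.662% of all genes were called lower. By the adjusted p alone 17 of the 19 were lower, beside 19.3% of all genes. For 16 the groups did not overlap, as for 17.7% of all genes in this direction. The median difference was −1.21, and the per-rat medians were −0.28, −0.29, 0.06 and −0.75 under 1-amino-2-methylanthraquinone, against 1.26, 0.71, 0.66 and 0.90 under monuron. The monuron rats were thus above the vehicle pool and 3 of the 4 rats given 1-amino-2-methylanthraquinone below it. Part of each difference lay in the vehicle channel, which was higher on the 1-amino-2-methylanthraquinone slide by 0.24 to 0.75 for the 10 of these genes that are named below. In the treated channel alone the median was −0.77 and 6 genes were called.

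The pathway starts with the condensation of acetyl units. Hmgcs1, the synthase that makes HMG-CoA, had log2 ratios of −0.38, −0.28, −0.54 and −0.75 under 1-amino-2-methylanthraquinone, against 2.28, 1.34, 1.10 and 1.64 under monuron. The groups lay more than 1 unit apart, and the difference was −2.07 ± 0.23 (SE, adjusted p = 8.78e-07), of which −1.36 lay in the treated channel. Mvd and Idi1, which turn mevalonate into the isoprene units, differed by −1.29 and −1.84, and Fdps and Fdft1, which join these units to farnesyl pyrophosphate and squalene, by −1.28 and −1.21. Fdps-ps4, annotated as a pseudogene of Fdps and named after its value was seen, gave −1.26, and hybridisation may not tell such a copy from Fdps.

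The later steps, from squalene to cholesterol, moved the same way. Sqle, the epoxidase of squalene, had log2 ratios of −0.10, −0.18, 0.18 and −0.77 under 1-amino-2-methylanthraquinone, against 1.98, 1.07, 1.00 and 1.55 under monuron, a difference of −1.62 ± 0.25 (SE, adjusted p = 3.03e-05). Lss, the cyclase that makes lanosterol, differed by −1.51, with −0.96 for its second probe. Cyp51, the demethylase of lanosterol, had ratios of −0.65, −0.59, −0.27 and −1.16 under 1-amino-2-methylanthraquinone, against 1.38, 1.00, 0.96 and 1.19 under monuron. The difference of Cyp51 was −1.80 ± 0.20 (SE, adjusted p = 7.63e-07), and 2 further probes gave −1.85 and −1.80. Msmo1 and Hsd17b7, enzymes of the sterol demethylation that follows, differed by −1.92 and −1.78. Dhcr7, a late reductase of the pathway, was lower by the adjusted p but under 2-fold, at −0.95 (adjusted p = 0.000135).

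Other members of the list differed less. Srebf2, the transcription factor of the pathway, differed by −0.26 (adjusted p = 1.29e-05). Insig1, which holds the factor back in the endoplasmic reticulum, gave −0.53 with rats between −2.58 and −0.32 under 1-amino-2-methylanthraquinone and between −1.53 and 0.03 under monuron, which the test did not separate (adjusted p = 0.452). Mvk, the mevalonate kinase, gave −0.10 (adjusted p = 0.375). Of 17 measured genes of fatty acid synthesis, none was called. By the adjusted p alone 3 were lower and 1 higher, beside 19.3% and 21.5% of all genes.

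The promoters of Hmgcs1, the cholesterol gene with the largest difference, and of Cyp51, with the closest agreement between probes, are shown as the sequence context of the group. They lie at chr2:53382054-53382353 and chr4:30991443-30991742, both on the plus strand of GRCr8 (RefSeq), and the single capital stretch is GCGTG:
Hmgcs1: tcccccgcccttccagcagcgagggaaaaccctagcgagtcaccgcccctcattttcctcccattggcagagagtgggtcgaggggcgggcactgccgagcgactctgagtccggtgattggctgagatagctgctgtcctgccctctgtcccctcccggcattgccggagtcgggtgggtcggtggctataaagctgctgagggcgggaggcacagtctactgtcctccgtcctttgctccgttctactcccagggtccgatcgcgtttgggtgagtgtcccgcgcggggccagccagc
Cyp51: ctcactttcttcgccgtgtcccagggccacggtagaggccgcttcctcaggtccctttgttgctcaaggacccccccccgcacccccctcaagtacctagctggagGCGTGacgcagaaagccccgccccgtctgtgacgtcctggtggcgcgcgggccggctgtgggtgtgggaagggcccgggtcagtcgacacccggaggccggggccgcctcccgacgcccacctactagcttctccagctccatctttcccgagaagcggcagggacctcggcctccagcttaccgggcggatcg
The sterol element in the form TCACNCCAC, searched on both strands, was in neither window and in 1.15% of all promoters. A share over the list is void, because only 14 of the 19 measured genes had a promoter in the table.

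**Figure D3:**
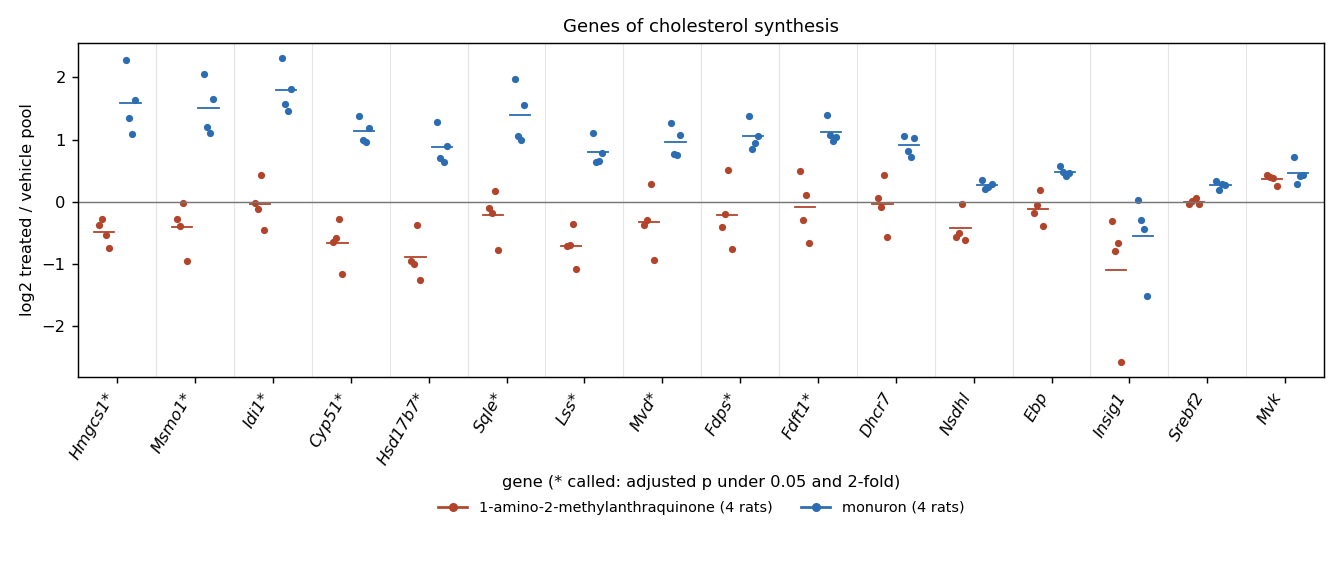
Log2 ratio of treated over vehicle pool (y axis) for 16 of the 19 measured genes of cholesterol synthesis (x axis, in order of the difference), with 1 point a rat, a bar at the mean of 4 rats, 1-amino-2-methylanthraquinone to the left of monuron. An asterisk marks the 10 called genes among them. Monuron values of Hmgcs1 lie between 1.10 and 2.28 and all 1-amino-2-methylanthraquinone values below 0.

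Of 19 measured bile acid genes 2 were called lower, where 0.662% of all genes were called lower. By the adjusted p alone 9 were lower and 1 higher, beside 19.3% and 21.5% of all genes. Cyp8b1, the hydroxylase that directs synthesis to cholic acid, had log2 ratios of −1.63, −0.46, −0.62 and 0.06 under 1-amino-2-methylanthraquinone, against 1.34, 0.76, 0.62 and 0.56 under monuron, a difference of −1.48 ± 0.24 (SE, adjusted p = 6.36e-05). Slc27a5, the bile acid CoA ligase, differed by −1.15 ± 0.13 (SE, adjusted p = 7.34e-07), with tight values of −1.42 to −1.20 under 1-amino-2-methylanthraquinone, against −0.27 to −0.03 under monuron. Cyp7a1, the rate-limiting enzyme of bile acid synthesis, gave −1.14 but varied between rats, from −2.26 to −0.33 under 1-amino-2-methylanthraquinone and from −0.33 to 0.47 under monuron, and did not pass the test (adjusted p = 0.095). Slc10a1, the uptake carrier for bile acids, differed by −0.77 (adjusted p = 3e-08).

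Amacr, the racemase of branched-chain fatty acids and bile acid precursors, had log2 ratios of −1.52, −1.87, −1.55 and −1.62 under 1-amino-2-methylanthraquinone, against 0.07, 0.06, −0.19 and 0.05 under monuron. Both groups were tight, and the difference was −1.64 ± 0.14 (SE, adjusted p = 2.86e-08), of which −1.14 lay in the treated channel. Hacl1, a peroxisomal lyase of the breakdown of branched fatty acids, differed by −2.0 ± 0.32 (SE, adjusted p = 5.3e-05), of which −1.05 lay in the treated channel and 0.94 in the vehicle channel. The apolipoprotein Apoa4 was below the pool in all 8 rats, with ratios of −4.13, −3.09, −2.11 and −3.65 under 1-amino-2-methylanthraquinone, against −1.52, −1.20, −1.80 and −1.66 under monuron, and a difference of −1.70 ± 0.35 (SE, adjusted p = 0.00054). Apoa2, a protein of HDL particles, differed by −1.14 ± 0.17 (SE, adjusted p = 2.78e-05), and was not called without 1-amino-2-methylanthraquinone rat 4 (−0.98). Of 27 measured PPARalpha targets none was called. By the adjusted p alone 12 were lower and 1 was higher, beside 19.3% and 21.5% of all genes.

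Both compounds raised Cyp1a genes over the vehicle pool, and 1-amino-2-methylanthraquinone more so. Of 9 measured targets of the aryl hydrocarbon receptor, 1 was called higher and none lower, where 1.12% of all genes were called higher. By the adjusted p alone 4 were higher and 1 lower, beside 21.5% and 19.3% of all genes. Cyp1a1, which oxidises planar aromatic compounds and is the most inducible target of the receptor, had log2 ratios of 4.54, 4.80, 5.13 and 5.56 under 1-amino-2-methylanthraquinone, against 3.05, 3.06, 2.29 and 2.68 under monuron. It was called against vehicle in both groups and the groups did not overlap. The difference was 2.24 ± 0.46 (SE, adjusted p = 0.000529), with 2.28 for a second probe. In the authors' deposited table of log2 ratios the difference of Cyp1a1 was smaller, at 1.38. Cyp1a2, the constitutive hepatic member that hydroxylates aromatic amines, had ratios of 2.61, 2.22, 2.60 and 2.42 under 1-amino-2-methylanthraquinone, against 1.51, 1.57, 1.49 and 1.61 under monuron. Its difference of 0.92 ± 0.20 (SE, adjusted p = 0.000856) passed the test but stayed under 2-fold. Aldh3a1, an aldehyde dehydrogenase induced through the receptor, and Ugt1a6, a glucuronosyltransferase of planar phenols, differed by 0.67 (adjusted p = 0.00245) and 0.29 (adjusted p = 0.0338). The lower one was Gsta2, a glutathione transferase of the alpha class, at −0.75 (adjusted p = 0.00151) and with groups that did not overlap. Nqo1, a quinone reductase that the receptor and Nrf2 both drive, had ratios of 1.99, 1.57, 1.74 and 1.74 under 1-amino-2-methylanthraquinone, against 1.60, 1.72, 1.41 and 1.66 under monuron. The 2 groups of Nqo1 values overlapped, and the difference was 0.16 with a 95% interval from −0.12 to 0.44.

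Genes alike under both compounds were sought among the 4692 tested genes with a known symbol. The rule asked for a call against vehicle in the same direction under both compounds. It also asked for a 95% interval of the difference within 1 unit either way. By this rule 27 genes were alike, and the 8 with the largest mean change are given. Grin2c, a subunit of a glutamate receptor, was the most raised, with log2 ratios of 3.65, 3.19, 3.37 and 3.14 under 1-amino-2-methylanthraquinone, against 3.26, 3.41, 3.33 and 3.21 under monuron (difference 0.03, 95% interval −0.45 to 0.52). Gpx2, a glutathione peroxidase, gave 0.26 (95% interval −0.12 to 0.63) and Akr7a3, an aflatoxin aldehyde reductase, −0.29 (95% interval −0.70 to 0.13). Aldh1a1, a retinal dehydrogenase, gave −0.14 (95% interval −0.61 to 0.33). The others were Samd7 (0.38, 95% interval −0.20 to 0.95), Gstt3 (−0.31, 95% interval −0.67 to 0.04), Acsm2 (−0.33, 95% interval −0.85 to 0.19) and Fmo5 (−0.48, 95% interval −0.95 to −0.02). These intervals hold the differences under 2-fold and do not show that the compounds act alike.

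Targets of CAR and PXR were lower under 1-amino-2-methylanthraquinone where they differed. Of 23 measured targets 3 were called lower and none higher, where 0.662% of all genes were called lower. By the adjusted p alone 11 were lower and none higher, beside 19.3% and 21.5% of all genes. The median difference was −0.50. Sult2a1, the sulfotransferase of bile acids and steroids, had log2 ratios of −1.29, −1.33, −0.60 and −2.90 under 1-amino-2-methylanthraquinone, against 0.65, 0.90, 0.53 and 1.10 under monuron, a difference of −2.33 ± 0.34 (SE, adjusted p = 1.55e-05). The groups lay on opposite sides of the pool. Cyp3a9, a steroid-oxidising P450, was below the pool in all 8 rats, with ratios of −3.88, −4.31, −3.21 and −4.26 under 1-amino-2-methylanthraquinone, against −2.05, −1.29, −1.93 and −1.55 under monuron (difference −2.21 ± 0.34, SE, adjusted p = 3.07e-05). Ugt2b1, a glucuronosyltransferase, was above the pool in all 8, with ratios of 0.86, 0.21, 0.98 and 0.65 under 1-amino-2-methylanthraquinone, against 2.13, 2.18, 2.02 and 2.16 under monuron. The difference of Ugt2b1 was −1.45 ± 0.14 (SE, adjusted p = 1.79e-07), of which −0.86 lay in the treated channel. Cyp2b15, of the P450 family that CAR drives most strongly, gave −0.58 ± 0.11 (SE, adjusted p = 0.000311). Cyp2b1, Cyp2b2 and Cyp3a1, further genes of the Cyp2b and Cyp3a families, were not among the measured genes.

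Among other conjugating enzymes, Ugt2a1, a glucuronosyltransferase best known from the nasal lining, differed by −1.22 ± 0.14 (SE, adjusted p = 1.37e-06), but 0.90 of this lay in the vehicle channel, and its second probe gave −0.35. Where 0.662% of all genes were called lower, 2 of 29 measured Nrf2 targets were called lower and none higher. By the adjusted p alone 5 were lower and none higher, beside 19.3% and 21.5% of all genes, and the median difference was −0.05. The 2 called were Hmox1, given below, and Gsta3, another alpha class glutathione transferase. Gsta3 was strongly raised over the pool in both groups, with log2 ratios of 4.57, 3.64, 5.01 and 3.65 under 1-amino-2-methylanthraquinone, against 5.24, 5.20, 5.22 and 5.34 under monuron. Its difference was −1.03 ± 0.39 (SE, adjusted p = 0.0408), and the 4 monuron values were far closer together than the others. The call of Gsta3 was lost in 6 of the 8 fits that left out 1 rat (adjusted p = 0.0672 to 0.128), which were those without 1-amino-2-methylanthraquinone rat 2 or 4 or any monuron rat. Gstp1, the transferase used as a marker of altered foci in rat liver, gave 0.00 (95% interval −0.42 to 0.43). Car3, a carbonic anhydrase of male rat liver, was below the pool in all 8 rats, at −3.69, −2.54, −1.75 and −1.96 under 1-amino-2-methylanthraquinone, against −1.08, −1.09, −0.99 and −1.45 under monuron (difference −1.33 ± 0.28, SE, adjusted p = 0.000782). Fmo1, a flavin monooxygenase, differed by −1.27 ± 0.26 (SE, adjusted p = 0.000589), and Slc1a2, a glutamate transporter of perivenous hepatocytes, by −1.03 ± 0.16 (SE, adjusted p = 3.62e-05). Of 17 measured perivenous genes only Slc1a2 was called, and by the adjusted p alone 7 were lower and 2 higher. Of 15 measured male-biased liver genes only Car3 was called, and 6 were lower and none higher by the adjusted p alone. Of 10 measured female-biased genes 2, Fmo1 and Sult2a1, were called lower, with 5 lower and 1 higher by the adjusted p alone. Over all genes these shares were 19.3% lower and 21.5% higher. Without 1-amino-2-methylanthraquinone rat 1 neither Car3 (−0.93), Fmo1 (−0.94) nor Slc1a2 (−0.92) was called. Slc1a2 was also not called without monuron rat 1 or 2, its second probe gave −0.42, and 0.37 of its difference lay in the vehicle channel.

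**Figure D4:**
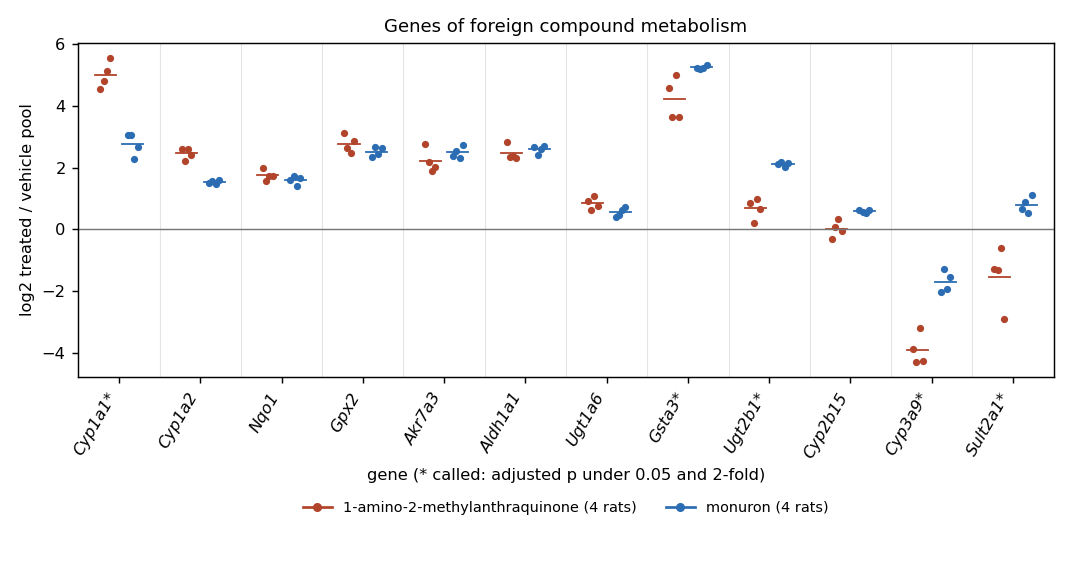
Log2 ratio of treated over vehicle pool (y axis) for 12 genes of foreign compound metabolism (x axis), with 1 point a rat, a bar at the mean of 4 rats, 1-amino-2-methylanthraquinone to the left of monuron. An asterisk marks called genes. Cyp1a1 lies above 4.5 in the 1-amino-2-methylanthraquinone rats and below 3.1 in the monuron rats, Nqo1 overlaps, and Sult2a1 lies on opposite sides of 0.

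Of 19 listed erythroid genes 5 were measured, and Hbb and Alas2 were called lower under 1-amino-2-methylanthraquinone than under monuron. Over all genes 0.662% were called lower. Hbb, a beta chain of haemoglobin, had log2 ratios of −0.23, 0.33, −0.38 and 0.00 under 1-amino-2-methylanthraquinone, against 1.65, 1.58, 1.40 and 1.93 under monuron, a difference of −1.71 ± 0.23 (SE, adjusted p = 6.94e-06). Alas2, the erythroid form of the rate-limiting enzyme of haem synthesis, had ratios of −0.06, 0.29, −0.19 and −0.02 under 1-amino-2-methylanthraquinone, against 1.11, 1.12, 1.02 and 1.27 under monuron, a difference of −1.12 ± 0.17 (SE, adjusted p = 2.89e-05). Neither gene lay above 0.33 under 1-amino-2-methylanthraquinone or below 1.02 under monuron, and the treated channel alone differed by −1.50 for Hbb and −1.36 for Alas2. Ahsp, the chaperone of free alpha globin, gave −0.58 (adjusted p = 0.00461), and Rhd, the red cell antigen, named after its value was seen, −1.25. Car2, a carbonic anhydrase of red cells and other tissues, lay above the pool in all 8 rats and gave −0.29 (adjusted p = 0.22). Alas1, the housekeeping form of the same enzyme, gave −0.10 with a 95% interval from −0.89 to 0.68.

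The globin values rest on probes of near-identical genes, so a single gene cannot be assigned. The 2 Hbb probes that follow overlap by 31 bases and differ in 1 of them, marked by the capital, and gave differences of −1.71 (the brightest) and −1.51 (the second):
Hbb, brightest probe: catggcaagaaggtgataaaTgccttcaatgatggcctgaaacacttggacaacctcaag
Hbb, second probe: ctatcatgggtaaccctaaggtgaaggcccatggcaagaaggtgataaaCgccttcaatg
One more Hbb probe gave −0.72. For the alpha chain, the 2 probes that resemble each other, with a shared run of 40 bases, gave −1.18 and −1.40. The brightest probe labelled Hba-a1 gave 0.46, but its 60 bases are also on the array under the design name Act-3, and it shares no run of more than 6 bases with the other probes of its label. Its annotation is therefore in doubt and 0.46 is not taken as a value of the alpha chain. Its sequence is printed because of that doubt:
Probe labelled Hba-a1: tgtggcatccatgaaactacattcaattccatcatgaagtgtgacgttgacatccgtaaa
This probe is 1 of the 5 measured erythroid genes above, and without it 2 of 4 were called lower.

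Genes of haem disposal differed in both directions. Of 19 measured genes of iron, haem and erythrocyte disposal, 2 were called lower and 2 higher, beside 0.662% and 1.12% of all genes. Hmox1, the oxygenase that breaks down haem, had log2 ratios of −0.03, −0.17, −0.19 and −0.02 under 1-amino-2-methylanthraquinone, against 1.52, 0.90, 0.75 and 0.60 under monuron, a difference of −1.04 ± 0.19 (SE, adjusted p = 0.000221). Marco, a scavenger receptor of macrophages, had ratios of 0.37, 0.02, −0.38 and 0.14 under 1-amino-2-methylanthraquinone, against 1.71, 1.03, 0.68 and 0.86 under monuron, a difference of −1.03 ± 0.30 (SE, adjusted p = 0.00824). Monuron rat 1 was the highest for both, and without it Hmox1 was no longer called (−0.85). Of the difference of Marco, −0.48 lay in the treated channel and 0.54 in the vehicle channel, and Marco was no longer called without 1-amino-2-methylanthraquinone rat 3 (−0.89) or without monuron rat 1 (−0.82). The part of macrophage number in the values of Hmox1 and Marco was not tested: of 14 measured macrophage markers Marco alone was called, and the median of the list was −0.27, with per-rat medians of −0.06, 0.06, −0.09 and 0.15 under 1-amino-2-methylanthraquinone, against 0.73, 0.31, 0.13 and 0.11 under monuron. In the treated channel alone the sign of that median was turned (0.08).

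The 2 genes called higher in that list are plasma proteins that bind free haemoglobin and haem. Haptoglobin (Hp) had log2 ratios of 0.45, 0.46, −0.32 and 0.31 under 1-amino-2-methylanthraquinone, against −0.76, −0.74, −1.01 and −0.85 under monuron, a difference of 1.06 ± 0.14 (SE, adjusted p = 5.21e-06). Haemopexin (Hpx) had ratios of 0.55, 0.99, −0.04 and 0.79 under 1-amino-2-methylanthraquinone, against −0.33, −0.44, −0.64 and −0.35 under monuron, a difference of 1.02 ± 0.16 (SE, adjusted p = 4.85e-05). Every monuron rat lay below the pool for both. Both differences stayed just past 2-fold, and neither was called in the treated channel alone (0.66 for Hp and 0.77 for Hpx). Hp was no longer called without 1-amino-2-methylanthraquinone rat 1 or 2, nor Hpx without 1-amino-2-methylanthraquinone rat 2 or 4 or monuron rat 3.

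Both proteins also belong to the acute phase response, the change in secreted liver proteins that cytokines drive. Of 29 measured genes of that list 3 were called higher and none lower, where 1.12% of all genes were called higher. By the adjusted p alone 14 were higher and 1 lower, beside 21.5% and 19.3% of all genes. The median of the list was 0.31. Lbp, which binds bacterial lipopolysaccharide in plasma, had log2 ratios of 2.90, 2.55, 0.43 and 2.14 under 1-amino-2-methylanthraquinone, against 0.50, 0.21, 0.05 and 0.23 under monuron, a difference of 1.76 ± 0.32 (SE, adjusted p = 0.000178). Rat 3 lay within the range of the monuron rats, so the groups overlapped. The complement factors C9 and C3 and transferrin (Tf) differed by 0.90, 0.79 and 0.68, with rat 3 the lowest of the treated rats for each. Crp, the C-reactive protein, was lower (−0.39, adjusted p = 0.015), and Stat3, the factor through which interleukin-6 acts, gave 0.01 (adjusted p = 0.94). Only 1 member of the list was called in the treated channel alone, and 1 without 1-amino-2-methylanthraquinone rat 2. Without rat 3 the list had 4 called members.

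**Figure D5:**
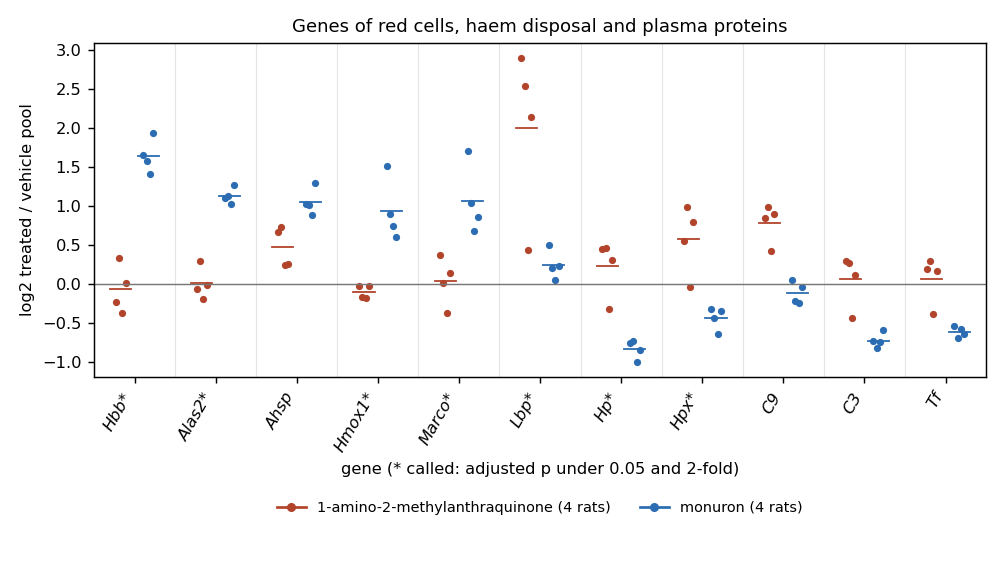
Log2 ratio of treated over vehicle pool (y axis) for 11 genes of red cells, haem disposal and plasma proteins (x axis), with 1 point a rat, a bar at the mean of 4 rats, 1-amino-2-methylanthraquinone to the left of monuron. An asterisk marks called genes. Hbb and Alas2 lie around 0 under 1-amino-2-methylanthraquinone and above 1 under monuron, and the lowest 1-amino-2-methylanthraquinone point of Lbp, Hp and Hpx is rat 3.

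Among single secreted and stress proteins, Serpina7, the thyroxine-binding globulin, had log2 ratios of 2.87, 1.72, 0.57 and 2.51 under 1-amino-2-methylanthraquinone, against −0.19, −0.42, −0.22 and −0.49 under monuron. The treated rats spread widely, yet all lay above the monuron rats, and the difference was 2.25 ± 0.51 (SE, adjusted p = 0.00135), with 1.54 in the treated channel and −0.64 in the vehicle channel. The metallothionein Mt1, which binds zinc and copper, differed by 1.35 ± 0.37 (SE, adjusted p = 0.00613), with rats between 0.08 and 2.13 under 1-amino-2-methylanthraquinone and between −0.66 and −0.18 under monuron. Mt1 was not called without 1-amino-2-methylanthraquinone rat 4 (0.98), and it differed by 0.78 in the treated channel and −0.60 in the vehicle channel. On the lower side, Tsnaxip1, which binds a partner of translin, had ratios of −2.21, −2.22, −1.38 and −3.42 under 1-amino-2-methylanthraquinone, against 0.32, 0.44, 0.16 and 0.63 under monuron (difference −2.70 ± 0.29, SE, adjusted p = 5.63e-07), the largest negative difference among genes with a symbol. Its second probe gave −2.70 as well. Prss32, a serine protease, differed by −2.44 ± 0.29 (SE, adjusted p = 1.88e-06), with treated signal well above background in 2 of 4 rats under 1-amino-2-methylanthraquinone and in 4 of 4 under monuron.

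Lists of other cell types held few called genes. Over all genes 1.12% were called higher and 0.662% lower, and by the adjusted p alone 21.5% were higher and 19.3% lower. Of 21 measured stellate cell and fibrosis genes none was called, while 10 were higher and 1 lower by the adjusted p alone, with a median of 0.26. Among them vimentin (Vim), a filament protein of mesenchymal cells, differed by 0.83, decorin (Dcn) by 0.73 and the collagen gene Col1a1 by 0.63, and the vehicle channel of Dcn differed by −0.57 and that of Col1a1 by −0.39. Of 14 measured lymphocyte genes 7 were higher and none lower by the adjusted p alone. Among the 14 only RT1-Da, a class II MHC chain, was called, at 1.00 ± 0.33 (SE, adjusted p = 0.0182). Its ratios were 0.37, 0.51, 0.57 and 1.40 under 1-amino-2-methylanthraquinone, against 0.74, −0.71, −0.48 and −0.71 under monuron, so monuron rat 1 lay among the rats of the other group. The call of RT1-Da was lost without 1-amino-2-methylanthraquinone rat 4 and without monuron rat 2, 3 or 4, with differences of 0.77 to 0.94. Of 13 measured interferon-stimulated genes 1, Oasl, was called higher (1.02 ± 0.15, SE, adjusted p = 1.79e-05), and its call was lost in 4 of the 8 fits without 1 rat (0.90 to 0.98). None of the 4 measured neutrophil and mast cell genes, the 5 endothelial genes or the 2 pancreatic acinar genes was called. By the adjusted p alone 2 of the 4 neutrophil and mast cell genes were higher and 2 of the 5 endothelial genes lower. So few measured genes cannot show that a cell type was unchanged.

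Clock genes differed in opposite directions. Of 12 measured genes 1 was called higher and 2 lower, beside 1.12% and 0.662% of all genes. Of the 2 lower calls 1 was that of Per1, whose probes differed in sign. By the adjusted p alone 1 of the 12 was higher and 5 were lower, beside 21.5% and 19.3% of all genes. Npas2, an activating partner of the clock, had log2 ratios of 0.38, 0.38, 0.28 and 0.32 under 1-amino-2-methylanthraquinone, against −1.01, −0.73, −0.71 and −1.0 under monuron, a difference of 1.20 ± 0.13 (SE, adjusted p = 4.37e-07). Dbp, an output factor of the clock, had ratios of −0.25, −0.40, −0.51 and −0.69 under 1-amino-2-methylanthraquinone, against 0.60, 0.39, 0.70 and 1.11 under monuron, a difference of −1.16 ± 0.13 (SE, adjusted p = 5.27e-07). Within each compound the 4 rats were on the same side of the pool for both genes, and neither was called in the treated channel alone (0.83 for Npas2 and −0.80 for Dbp). Per1, a repressor of the clock, differed by −1.04 for its brightest probe and −1.0 for another of the same 60 bases, but by 0.31 and 0.25 for 2 probes of other sequence, so no direction is given for it. Bmal1 and Clock, the core activators, gave 0.10 and −0.03, with adjusted p = 0.212 and 0.662. Klf10, an early response gene, differed by −1.03 ± 0.32 (SE, adjusted p = 0.0132), with 0.62 in the vehicle channel, −0.41 in the treated channel and −0.29 for its second probe. Its call was lost without 1-amino-2-methylanthraquinone rat 1 or monuron rat 2 or 3. The labels used here do not give the hour at which the livers were taken.

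Of the 37 gene lists, 15 had no called member, among them the p53 targets, the cell cycle, oxidative phosphorylation, the ER stress and amino acid response and the proteasome. In oxidative phosphorylation 3 of 31 measured genes were higher and 13 lower by the adjusted p alone, where 19.3% of all genes were lower. Of 20 measured p53 targets, 4 were higher and 4 lower by the adjusted p alone, near the 21.5% and 19.3% of all genes. Cdkn1a, the p21 inhibitor of the cell cycle, had log2 ratios of 0.50, 0.62, 0.19 and 0.27 under 1-amino-2-methylanthraquinone, against −0.36, −0.20, −0.34 and −0.51 under monuron, a difference of 0.75 ± 0.22 (SE, adjusted p = 0.0101). The cyclin Ccng1, a p53 target of rat liver, had ratios of 0.83, 0.73, 0.75 and 0.64 under 1-amino-2-methylanthraquinone, against 0.80, 0.79, 0.74 and 0.73 under monuron. It lay above the pool in all 8 rats, with a difference of −0.03 (95% interval −0.17 to 0.11) for its brightest probe. Its 4 other probes gave −0.35 to −0.13, and the mean over its probes differed by −0.20 (adjusted p = 0.0184). Mdm2, the ligase that degrades p53, gave −0.02 (95% interval −0.15 to 0.11) for its brightest probe. Its 3 other probes gave −0.31 to −0.02, and the mean over its probes differed by −0.16 (adjusted p = 0.0316). Of 24 measured cell cycle genes 1 was higher and 2 lower by the adjusted p alone. Pcna, the sliding clamp of replication, gave 0.16 (95% interval −0.11 to 0.44), and −0.15 for a second probe.

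A further 96 called genes had no symbol. The largest positive differences, 3.51 for Rn.62459 and 3.49 for Rn.155634, were set by the vehicle channel, which differed by −3.19 and −3.20. The largest negative ones were −3.77 for Rn.26559, where the vehicle channel differed by 2.47, and −2.12 for Rn.144992, where it differed by 0.80.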

How the data were processed

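Each array held the liver RNA of 1 treated rat in Cy3 and a vehicle pool in Cy5, without dye swaps. The deposited scanner files gave mean signals and median backgrounds as intensity, and a log10 ratio of Cy5 over Cy3, per the file headers. The authors' deposited value table held log2 ratios whose direction and scale it does not state; set against the scanner values they ran as treated over vehicle. Feature Extraction 9.1.3.1 was used, per the submitters' processing notes. The number of arrays limits the precision.

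Intensities were corrected with normexp (offset 50) and loess in limma 3.58.1 (R 4.3.3). Control and outlier spots were left out, the 2 copies of a probe were averaged, and ratios were turned to treated over vehicle. Of 21900 probes 16085 were kept, because either channel exceeded background throughout the arrays of some compound. The brightest kept probe stood for a gene. Symbols came from the array design, updated through RefSeq names (GRCr8), and 12267 probes had none. The 24 arrays were fitted with 1 mean per compound (lmFit and eBayes, 18 residual and 2.91 prior degrees of freedom), and the contrast was 1-amino-2-methylanthraquinone minus monuron. The labels call the 4 rats of a compound biological replicates, and the spread of the vehicle pool enters no test. Channel differences are of single channels, quantile normalised. The fit was tested on simulated data with independent noise of each gene's spread and known differences in some genes. These data held no slide or pool difference, so the test does not bear on either.

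Named were the 15 largest called, non-overlapping differences in each direction, up to 4 called members of each of 37 lists, 24 fixed genes (5 not measured) and 8 alike genes; others are marked as chosen after their values were seen or belong to a list described. The 5 fixed genes not measured were Cyp1b1, Cyp2b1, Cyp2b2, Cyp3a1 and Hamp. Genes and lists were chosen with earlier results of these data known. Alternatives changed the background, normalisation, probe filter, probe rule, weights, channels, block and arrays. Results for 3 genes of cholesterol synthesis are not reported here, beyond their part in the counts and medians.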

Additional observations from a re-analysis of the deposited data

Results flagged for a closer look

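Within each compound, the 4 log2 ratios of the 70 genes chosen by rule were checked for 1 rat far from the other 3, in 140 groups of values. Such a check marks about 1 in 20 groups by chance, and it marked 3. Aldh1a1 was 2.82 in 1-amino-2-methylanthraquinone rat 1 and 2.31 to 2.36 in the other 3. RT1-Da was 0.74 in monuron rat 1 and −0.71 to −0.48 in the other 3. Amacr was −0.19 in monuron rat 3 and 0.05 to 0.07 in the other 3.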

How the results depend on the processing

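The 129 genes called higher became 66 with no background correction, 202 with plain subtraction, 312 with the scanner's log ratio and 304 with the deposited value table, and the 76 called lower became 182 with the scanner's log ratio and 169 with that table. Of the 205 called genes 200 were called the same way in the deposited table. Without the 2-fold limit 2465 were higher and 2221 lower. Leaving out 1 rat at a time gave 115 to 159 higher and 70 to 106 lower. With median centring in place of loess 45.2% of calls were higher, against 62.9%, and the median of all genes moved to −0.06. The replicate number as a block gave 131 higher and 79 lower, with all 205 among them; same-numbered rats correlated at 0.07 to 0.17, and in 3 of 4 cases best with their own number. Because 1 of the 4 correlations was under 0.1, the numbers were not taken as pairs. The bile duct list had 8 to 9 called members without 1 rat, cholesterol synthesis 10 to 12 and 6 in the treated channel alone. The acute phase list had 1 called member with median centring and 1 in the treated channel alone, and 1 to 4 without 1 rat. The erythroid list had 2 called members and the CAR and PXR list 3 without any 1 rat, and the erythroid list 2 without the probe labelled Hba-a1. The counts of these lists without 1 rat or that probe were chosen after seeing the data. Of 53 named called genes, 18 lost their call in the treated channel alone, where Il1rn turned to −0.12, 15 with scaling between arrays, 11 with no background correction and 1 to 7 without 1 rat.

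Among the genes not called, signs turned as follows. With median centring Nqo1 was −0.015, Gstp1 −0.15 and Grin2c −0.052. With scaling between arrays Nqo1 was −0.021, Gstp1 −0.018, Gpx2 −0.053, Alas1 0.048 and Grin2c −0.31. With no background correction Gstp1 was −0.0085 and Grin2c −0.011, and they were −0.0015 and −0.17 in the scanner's own ratio. Array weights gave −0.018 for Gstp1, 0.19 for Alas1 and −0.070 for Grin2c. Grin2c was −0.14 in the deposited table, Alas1 0.12 as the mean of its probes and Gstt3 0.20 in the treated channel alone. Without 1 rat the ranges were −0.040 to 0.054 for Gstp1, −0.063 to 0.0013 for Ccng1, −0.040 to 0.016 for Mdm2, −0.44 to 0.21 for Alas1 and −0.073 to 0.10 for Grin2c. The cause of these changes was not tested.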
